A study of Mus musculus with 8 samples.

Results

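The endoplasmic reticulum (ER) stress response genes described here are 10 genes, Hspa5, Hsp90b1, Calr, Pdia6, Sdf2l1, Dnajb9, Herpud1, Xbp1, Atf4 and Ddit3, found by symbol among the 27179 genes of the deposited expression table. They were chosen by the level of Hspa5, which was higher in lamina propria than in Peyer's patches in both genotypes, so every difference between the tissues is given as a description with no test, while the differences between genotypes were tested. All 10 passed the filter on low values, which kept 10541 genes with at least 1 RPKM (reads scaled to gene length and library depth) in at least 2 of the 8 libraries.

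The cells were lymphoid tissue inducer (LTi) cells of C57BL/6 mice, sorted by the labels as lineage-negative, CD127-positive, CCR6-positive cells without KLRG1, NK1.1 and NKp46. The 4 groups, with 2 libraries each, were lamina propria (LP) of Tcf7fl/fl mice that carry Cre, titled Tcf7-KO, LP of Tcf7+/+ mice, Peyer's patches (PP) of the same Tcf7fl/fl Cre genotype and PP of Tcf7+/+ mice, called wild-type here. Tcf7 encodes the transcription factor TCF-1, and the deletion is limited to cells in which Cre is or was active. The labels give neither the age of the mice nor whether the libraries came from separate animals or both tissues from the same ones, so the p-values measure the spread between these libraries, which may be technical.

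Proteins that enter the ER are folded there by chaperones and by enzymes that form disulfide bonds, and those that fail are carried back to the cytosol and degraded. When unfolded proteins accumulate, the sensors IRE1, ATF6 and PERK leave the chaperone BiP and start the unfolded protein response. IRE1 splices the Xbp1 RNA, ATF6 is cut to release a transcription factor, and PERK slows translation while favouring that of ATF4, which in turn raises Ddit3. XBP1 and ATF6 act on chaperone and degradation genes, and cells that secrete much protein, such as plasma cells and goblet cells, run this programme at a high level. ATF4 is also translated under amino acid shortage and other stresses outside the ER.

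The promoters of some of these genes carry the ER stress response element (ERSE), the site through which ATF6 and XBP1 act. It was searched for as CCAAT, any 9 bases and CCACG, on both strands, from 250 bases before to 50 bases after the gene start, in the RefSeq promoters of GRCm38.p6, where all 10 genes had an entry. The 5 matches are shown because they occur both in genes that were higher in every LP library and in genes whose tissues overlapped, and the sequence is written along the motif, its fixed ends in capitals.
Hspa5, chr2:34772025-34772043, plus strand: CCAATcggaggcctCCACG
Calr, chr8:84847075-84847093, plus strand: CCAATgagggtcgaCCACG
Hsp90b1, chr10:86705638-86705656, minus strand: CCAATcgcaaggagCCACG
Hsp90b1, chr10:86705533-86705551, plus strand: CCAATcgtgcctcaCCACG
Pdia6, chr12:17266491-17266509, plus strand: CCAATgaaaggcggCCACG
ERSE matches were thus found in 4 of the 10 promoters, and in 0.119% of all 32851 promoter windows. The shorter ERSE-II, ATTGG, any 1 base and CCACG, was found in Herpud1 and in 0.0365% of all windows, the UPRE core TGACGTG in Hspa5 and in 2.01%, and the C/EBP-ATF response element (CARE) TGATGNAA in Herpud1 and in 3.97%. The end CCACG alone, which is contained in the ERSE and ERSE-II, was in 8 of the 10 promoters and in 32.8% of all windows.

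The 250 bases before the gene start are given for 3 genes that stand for different patterns below, Hspa5 and Herpud1 with higher levels in LP and Pdia6 without, with matches to the ERSE, the ERSE-II, the UPRE core or the CARE in capitals. The Hspa5 stretch is chr2:34771840-34772089 on the plus strand, that of Pdia6 chr12:17266339-17266588 on the plus strand and that of Herpud1 chr8:94386179-94386428 on the plus strand.
Hspa5: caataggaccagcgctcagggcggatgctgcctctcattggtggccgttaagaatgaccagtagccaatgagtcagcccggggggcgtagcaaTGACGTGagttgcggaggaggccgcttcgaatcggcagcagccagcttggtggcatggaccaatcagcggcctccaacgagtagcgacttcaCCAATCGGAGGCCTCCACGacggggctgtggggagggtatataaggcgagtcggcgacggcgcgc
Pdia6: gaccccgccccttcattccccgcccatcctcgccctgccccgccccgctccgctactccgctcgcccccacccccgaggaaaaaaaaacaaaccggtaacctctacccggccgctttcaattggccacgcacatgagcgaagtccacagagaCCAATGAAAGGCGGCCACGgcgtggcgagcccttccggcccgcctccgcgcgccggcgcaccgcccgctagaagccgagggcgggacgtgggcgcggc
Herpud1: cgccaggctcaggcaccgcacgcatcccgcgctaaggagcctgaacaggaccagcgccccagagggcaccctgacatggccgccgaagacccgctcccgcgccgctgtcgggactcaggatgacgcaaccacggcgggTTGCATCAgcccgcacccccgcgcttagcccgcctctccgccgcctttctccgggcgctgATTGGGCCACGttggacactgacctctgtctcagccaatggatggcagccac
These letters are a description of the windows and not evidence that a factor was bound there in these cells.

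Tcf7 had 237 and 215 RPKM in the LP libraries labelled Tcf7-KO and 229 and 246 RPKM in the wild-type LP libraries, and 355 and 337 RPKM in the PP libraries labelled Tcf7-KO against 243 and 85.4 RPKM in the wild-type PP libraries. The difference between libraries labelled Tcf7-KO and wild-type was -0.07 ± 0.48 (SE) on the log2(RPKM + 1) scale in LP and 1.26 ± 0.48 in PP, and neither passed limma's test (Benjamini-Hochberg adjusted p of 1 in LP and 0.365 in PP). No loss of Tcf7 RNA was thus detected in the libraries labelled Tcf7-KO, and a value for the whole gene does not tell reads of the deleted part from the rest. An estimate of depth from the smallest steps between values of intronless genes gave 38.3 to 44.3 M reads per library, so that 1 read in a gene of 1 kb was worth 0.0226 to 0.0261 RPKM. Of the LTi genes, Il7r, Ccr6 and Kit were at 89.3 RPKM or more in all 8 libraries, and Ncr1, which encodes NKp46, was at 0 in all of them. The other genes of the markers gated out were not at 0 throughout: Klrb1c, which encodes NK1.1, was at 8.42 RPKM in PP Tcf7-KO replicate 2, 32.8 RPKM in wild-type PP replicate 1 and 0.19 RPKM or less elsewhere, and Klrg1 at 10.7 RPKM in wild-type LP replicate 1 and under 0.04 RPKM elsewhere. Tbx21, which encodes T-bet, a factor of group 1 and NKp46-positive innate lymphoid cells, had 0.03 to 11.3 RPKM in LP and 0.05 RPKM or less in PP.

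Hspa5 encodes BiP, the ER chaperone that holds the sensors inactive. It had 1186.7 and 2031.9 RPKM in the LP libraries labelled Tcf7-KO and 1708.5 and 1556.5 RPKM in the wild-type LP libraries, against 467 and 371 RPKM in the PP libraries labelled Tcf7-KO and 398 and 326 RPKM in the wild-type PP libraries. All LP libraries lay above all PP libraries, and the mean was 1621 ± 351 RPKM in LP and 390 ± 58.8 RPKM in PP (SD, n = 4 each), a ratio of 4.15. By its mean level in each group, Hspa5 ranked 37th and 38th of the 10541 genes in LP, labelled Tcf7-KO and wild-type, and 155th and 224th in PP.

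Hsp90b1 encodes GRP94, the ER member of the Hsp90 family, and carries a pair of ERSE matches. It had 193 and 178 RPKM in the LP libraries labelled Tcf7-KO, 226 and 204 in the wild-type LP libraries, 207 and 196 in the PP libraries labelled Tcf7-KO and 151 and 187 in the wild-type PP libraries. The tissues overlapped, and the ratio of the means was 1.08. The level of Hspa5 divided by that of Hsp90b1 in the same library, which no scaling between libraries can move, was 6.16 to 11.4 in LP and 1.75 to 2.64 in PP.

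Calr encodes calreticulin, the lectin chaperone of newly made glycoproteins. It had 173 to 212 RPKM in the 4 LP libraries, against 86.9 and 139 RPKM in the PP libraries labelled Tcf7-KO and 11.3 and 108 RPKM in the wild-type PP libraries. All LP libraries lay above all PP libraries, but wild-type PP replicate 1 stood far below the other PP libraries. The LP minus PP difference of 1.58 on the log2(RPKM + 1) scale became 0.80 without that library.

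Pdia6, a protein disulfide isomerase that also acts on IRE1, was not among the genes higher in LP. It had 36.7 and 135 RPKM in the LP libraries labelled Tcf7-KO and 64.6 and 163 in the wild-type LP libraries, against 146 and 202 in the PP libraries labelled Tcf7-KO and 196 and 210 in the wild-type PP libraries. The tissues overlapped, the mean in LP was 0.53 times that in PP, and the LP libraries spread over a 4.45-fold range against 1.44-fold in PP. The LP minus PP difference was -1.12 on the log2(RPKM + 1) scale and -0.66 without LP Tcf7-KO replicate 1, the lowest library.

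The members that assist BiP went separate ways. Sdf2l1, which forms a complex with BiP and ERdj3, had 30.5 and 76.8 RPKM in the LP libraries labelled Tcf7-KO and 41.9 and 52.0 in the wild-type LP libraries, against 38.8 and 91.2 in the PP libraries labelled Tcf7-KO and 49.0 and 209 in the wild-type PP libraries. Its tissues overlapped, and its LP minus PP difference of -0.70 on the log2(RPKM + 1) scale became -0.18 without wild-type PP replicate 2. Dnajb9 encodes ERdj4, a J-domain partner of BiP that represses IRE1, and had 123 and 103 RPKM in the LP libraries labelled Tcf7-KO and 118 and 71.2 in the wild-type LP libraries, against 12.2 and 21.3 in the PP libraries labelled Tcf7-KO and 13.8 and 22.4 in the wild-type PP libraries. The lowest LP library of Dnajb9 was above the highest PP library by a wide margin, and the ratio of the means was 5.95.

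Herpud1, a membrane protein of the ER that serves the degradation complex around the ligase HRD1, was the second most abundant member in LP. It had 944 and 812 RPKM in the LP libraries labelled Tcf7-KO and 862 and 895 in the wild-type LP libraries, against 71.5 and 127 in the PP libraries labelled Tcf7-KO and 162 and 187 in the wild-type PP libraries. The ratio of the means was 6.42, and the 4 LP libraries stayed within a 1.16-fold range, the narrowest of the 10 genes in LP. Relative to Hsp90b1 in the same library, Herpud1 was at 3.81 to 4.90 in LP and 0.35 to 1.07 in PP.

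All 3 transcription factors lay higher in every LP library than in any PP library. Xbp1, whose spliced RNA encodes the active factor, had 407 and 450 RPKM in the LP libraries labelled Tcf7-KO and 390 and 582 in the wild-type LP libraries, against 164 and 215 in the PP libraries labelled Tcf7-KO and 183 and 177 in the wild-type PP libraries. The ratio of the means was 2.48, and the values per gene do not separate spliced from unspliced RNA. Atf4 had 231 and 271 RPKM in the LP libraries labelled Tcf7-KO and 380 and 416 in the wild-type LP libraries, against 8.83 and 80.5 in the PP libraries labelled Tcf7-KO and 35.5 and 93.9 in the wild-type PP libraries.

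The level of Atf4 in LP was within a 1.80-fold range, that in PP within a 10.6-fold range, and the ratio of the means was 5.93. Ddit3, which encodes CHOP, the factor linked to cell death under lasting ER stress, had 335 and 182 RPKM in the LP libraries labelled Tcf7-KO and 213 and 247 in the wild-type LP libraries, against 1.04 and 36.3 in the PP libraries labelled Tcf7-KO and 56.1 and 0.90 in the wild-type PP libraries. Ddit3 had the largest LP minus PP difference of the 10 genes, 4.65 on the log2(RPKM + 1) scale, and also the widest spread, a 62.0-fold range in PP with 1 library of each genotype near 1 RPKM. That difference was 3.42 without wild-type PP replicate 2, the lowest library, and 5.88 without wild-type PP replicate 1.

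**Figure D1:**
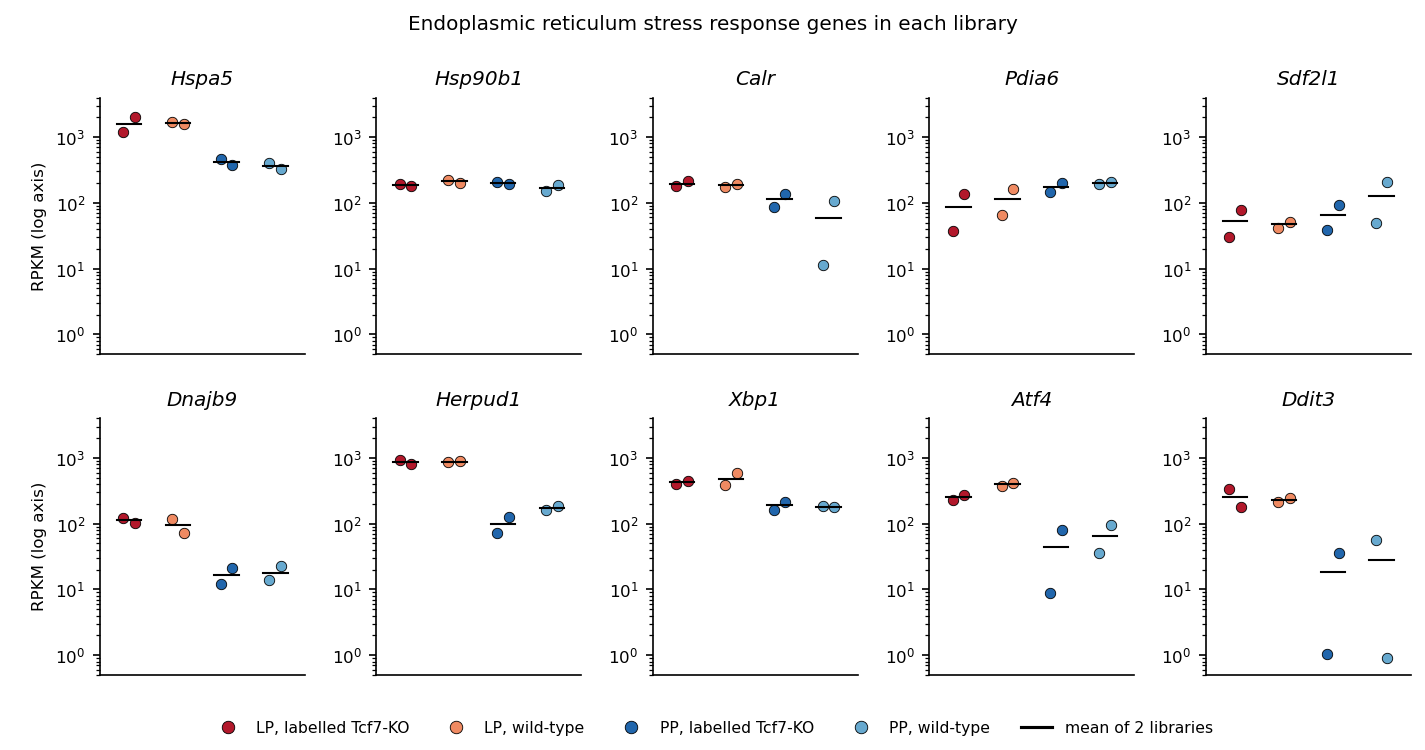
Each panel shows 1 gene, with RPKM on a log axis, 2 points per group for the 2 libraries and a bar at their mean; the groups run from LP labelled Tcf7-KO and LP wild-type to PP labelled Tcf7-KO and PP wild-type. The LP libraries lie above the PP libraries for 7 genes and overlap with them for Hsp90b1, Pdia6 and Sdf2l1, and the PP points of Calr, Atf4 and Ddit3 are far apart within a group.

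Counted together, 7 of the 10 genes had all 4 LP libraries above all 4 PP libraries and 0 had them below. Over all 10541 genes the shares were 6.54% above and 7.05% below, and since the tissue contrast chose the genes, nothing is read from that difference. The median LP minus PP difference of the 10 was 1.81 on the log2(RPKM + 1) scale and that of all genes -0.10. The count of 7 was the same without any single library and under each of the other pseudocounts, filters and scalings tried. Leaving out a library or changing the pseudocount cannot undo such an order, and a filter can only drop a gene. Of these alternatives, only the scalings could thus have changed the order of libraries in the 7 genes.

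The order of levels also differed between the tissues. In LP, Hspa5 at a mean of 1621 RPKM stood above Herpud1 at 878 RPKM and Herpud1 above Xbp1 at 457 RPKM with no overlap of libraries. Below them Xbp1, Atf4, Ddit3, Hsp90b1 and Calr each overlapped with the next, and Calr lay clear of Dnajb9, Pdia6 and Sdf2l1. In PP, Hspa5 at 390 RPKM stood clear, and the other 9 genes each overlapped with the next, from Pdia6 at 188 RPKM and Hsp90b1 at 185 RPKM down to Ddit3 at 23.6 RPKM and Dnajb9 at 17.4 RPKM.

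**Figure D2:**
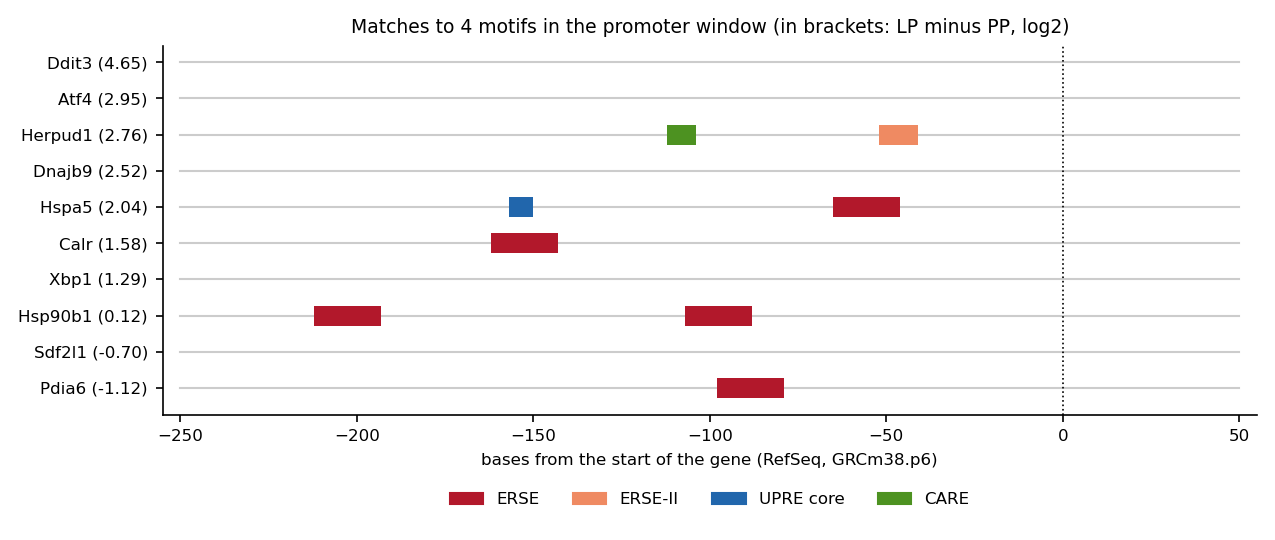
Matches to 4 motifs in the window from 250 bases before to 50 bases after each gene start, with genes ordered by their LP minus PP difference on the log2(RPKM + 1) scale, given in brackets; the end CCACG alone is not drawn. The ERSE matches lie in Hspa5 and Calr, which were higher in LP, and in Hsp90b1 and Pdia6, whose tissues overlapped.

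Exact ERSE matches in this window were not confined to the members higher in LP. Near matches and sites outside the window were not searched, and the members were chosen through the tissue contrast, so this is a description. Of the 4 genes with an ERSE match, Hspa5 and Calr had all LP libraries above all PP libraries and Hsp90b1 and Pdia6 did not. Of the 6 genes without one, 5 lay higher in LP, and 4 of these, Dnajb9, Xbp1, Atf4 and Ddit3, had no match to any of the 4 longer motifs in this window.

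Other genes of the same pathways were described from lists without the 10 members. These lists were chosen with earlier results of these data known, so their shares are a description. Among the sensors and their factors, 9 of 12 genes passed the filter, and 2 had all LP libraries above all PP libraries, 0 below (22.2% and 0%, against 6.54% and 7.05% of all genes). Ern1, which encodes IRE1, had 108 to 132 RPKM in LP and 9.31 to 20.5 in PP, and Atf6 had 14.3 to 54.1 RPKM in LP and 0.15 to 10.5 in PP. Mbtps1 and Mbtps2, which encode the proteases that cut ATF6, overlapped between the tissues, and so did Eif2ak3, which encodes PERK and stayed at 10.6 RPKM or less.

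Among ATF4 and CHOP target genes, 22 of 30 passed the filter, 6 lay higher in every LP library and 0 lower (27.3% and 0%, against 6.54% and 7.05% of all genes), and the median difference was 1.51 on the log2(RPKM + 1) scale. Atf3, a stress-induced transcription factor, had 501 to 1083.3 RPKM in LP and 3.21 to 27.9 in PP. Cebpb, a partner of CHOP, had 172 to 498 RPKM in LP and 1.17 to 51.0 in PP. Ppp1r15a, which encodes GADD34 and restores translation after PERK, had 346 to 428 RPKM in LP and 46.2 to 132 in PP. The remaining 3 were Ppp1r15b and the amino acid transporter genes Slc3a2 and Slc7a1, with Slc3a2 at 419 to 582 RPKM in LP and 31.8 to 123 in PP. Chac1, a target of ATF4 that degrades glutathione, had 0.03 to 30.6 RPKM in LP and 0.16 or less in PP, with overlap through 1 LP library.

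Of 24 other ER chaperones and folding enzymes, all of which passed the filter, 0 had all LP libraries above all PP libraries and 3 had all below (0% and 12.5%, against 6.54% and 7.05% of all genes), with a median difference of -0.07 on the log2(RPKM + 1) scale. The 3 were the disulfide isomerase genes Pdia3 and Pdia4 and the prolyl isomerase gene Ppib. Pdia4 had 9.24 to 55.7 RPKM in LP and 108 to 181 in PP. Creld2, Hyou1 and Erp29, the other genes of this list with the largest differences, overlapped between the tissues.

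Of 23 other genes of ER-associated degradation, 2 lay higher and 1 lower in every LP library. These shares, 8.7% and 4.35%, were near the 6.54% and 7.05% of all genes, so the counts are not a result about the list. Of the 23, 14 had a positive LP minus PP difference, against 4955 of all 10541 genes, with a median of 0.16 on the log2(RPKM + 1) scale. Edem1, a lectin that sorts misfolded glycoproteins, had 23.5 to 65.7 RPKM in LP and 2.42 to 16.3 in PP, and Ube2j1, a ubiquitin-conjugating enzyme of the ER membrane, had 99.3 to 150 RPKM in LP and 14.9 to 63.0 in PP. Derl2, part of the degradation complex, was the lower one, at 11.6 to 18.5 RPKM in LP and 22.2 to 27.6 in PP. Syvn1, which encodes HRD1, had 28.6 to 56.2 RPKM in LP and 0.28 to 45.7 in PP, and Ube2j2, another ubiquitin-conjugating enzyme, had 24.5 to 58.0 RPKM in LP and 0.67 to 27.5 in PP, both with overlap.

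Of 33 genes of ER translocation, glycosylation and transport that passed the filter, out of 34, 2 lay higher and 7 lower in every LP library (6.06% and 21.2%, against 6.54% and 7.05% of all genes), with a median difference of -0.37. The 7 lower genes were Kdelr1, Stt3b, Ostc, Tram1, Krtcap2, Sec61b and Sec11c, and the 2 higher ones Rpn1 and Srp54a. Kdelr1, the receptor that returns BiP and other KDEL proteins from the Golgi, had 0.78 to 47.8 RPKM in LP and 90.8 to 174 in PP. Stt3b and Ostc, subunits of the enzyme that attaches glycans, had 3.54 to 55.7 and 11.3 to 47.7 RPKM in LP and 71.2 to 214 and 99.2 to 152 RPKM in PP. Sec24d, a cargo-binding subunit of the COPII vesicle coat, had the second largest difference of this list and lay the other way, with 11.4 to 27.2 RPKM in LP, against 0.12 and 0.05 RPKM in the PP libraries labelled Tcf7-KO and 14.2 and 0.08 RPKM in the wild-type PP libraries. Its tissues overlapped through wild-type PP replicate 1, and the LP minus PP difference was 3.16 on the log2(RPKM + 1) scale.

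**Figure D3:**
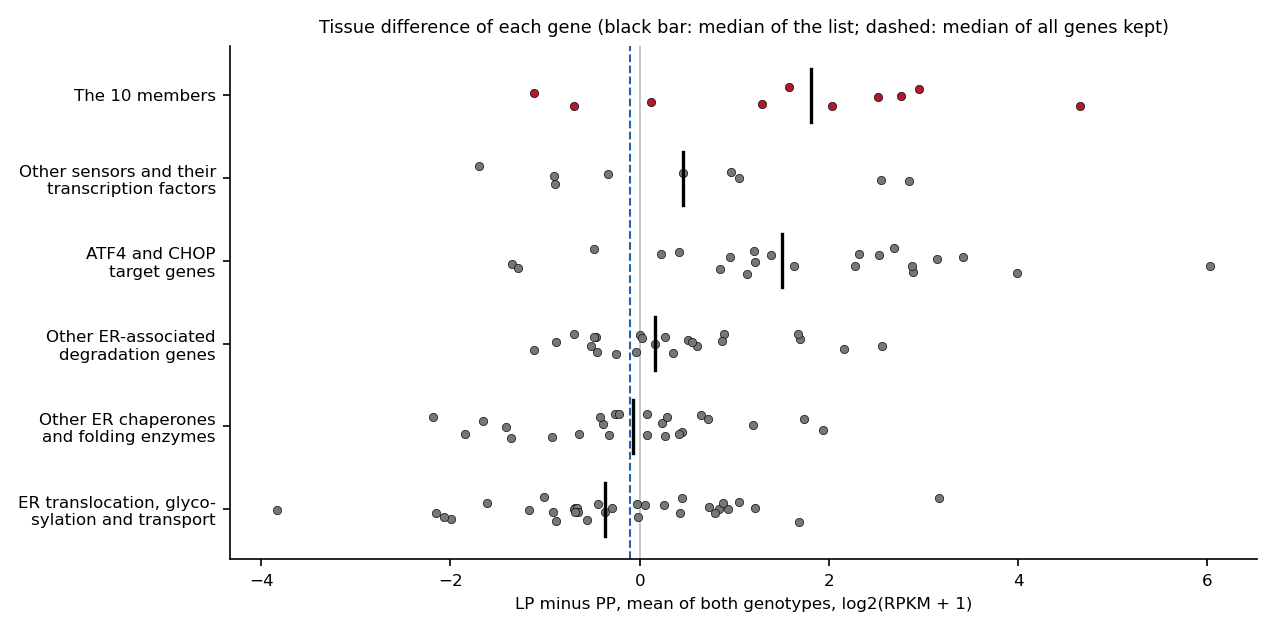
Each point is 1 gene at its LP minus PP difference on the log2(RPKM + 1) scale, the mean of both genotypes, in rows for the 10 members and for 5 pathway lists without them; the black bar is the median of the row and the dashed line that of all genes kept. The medians are 1.81 for the members and 1.51 for ATF4 and CHOP target genes, and -0.07 for the other ER chaperones.

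The genes whose profile over the 8 libraries was most like that of Hspa5 were Arf4, Srsf3, Gpr183, Ormdl3 and Samsn1. Likeness was the root mean square difference of centred log2(RPKM + 1) values, which was 0.21 for Arf4, a small GTPase of the Golgi, and 0.30 for Ormdl3, an ER membrane protein that restrains sphingolipid synthesis, among 5489 genes that averaged 10 RPKM or more. Arf4 had 531 to 807 RPKM in LP and 136 to 163 in PP. Of the other members, Xbp1 came nearest, at rank 39 with a difference of 0.48, followed by Dnajb9 at rank 64 and Herpud1 at rank 111, and Ddit3 was farthest, at rank 3767.

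Levels of other gene lists moved with the tissue as well. B and plasma cell markers summed to 25344 to 43335 RPKM in LP and 7802 to 18154 RPKM in PP, and of the 24 of 28 that passed the filter, 4 lay higher in every LP library (Igha, Igkc, Iglc2 and Jchain) and 5 lower, Ighm among them (16.7% and 20.8%, against 6.54% and 7.05% of all genes). Immunoglobulin genes took 10.3 to 17.1% of summed RPKM in LP and 2.81 to 6.38% in PP. Of the other plasma cell markers, Mzb1 and Sdc1 overlapped between the tissues, at 53.4 to 204 and 20.7 to 98.5 RPKM in LP and 25.4 to 103 and 44.3 to 77.4 RPKM in PP, and Tnfrsf17 was below 0.1 RPKM in 7 of the 8 libraries. Other plasma cell genes reached higher levels in some LP libraries, also with overlap. Fkbp11, an ER prolyl isomerase gene abundant in secretory cells, had 86.3 and 0.10 RPKM in the LP libraries labelled Tcf7-KO and 0.11 and 9.22 in the wild-type LP libraries, against 0.18 RPKM or less in PP. Prdm1, which encodes the plasma cell factor BLIMP-1, had 0.005 to 7.06 RPKM in LP and 0.03 RPKM or less in PP. Eaf2 had 0.02 to 9.80 RPKM in LP and 0.01 to 4.27 in PP, and the light chain gene Iglc1 63.8 to 4743.9 RPKM in LP and 57.4 to 1639.5 in PP. The part of these transcripts in the tissue differences was not tested, and in bulk RNA fewer cells of a type and less RNA per cell cannot be told apart.

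Epithelial markers, with goblet cell genes among them, summed to 350 to 1719 RPKM in LP and 198 to 951 RPKM in PP. Of the 28, 25 passed the filter, and 19 of the 25 had a positive LP minus PP difference, against 4955 of all 10541 genes. The median difference was 1.504 on the log2(RPKM + 1) scale. Tff3 alone was higher in every LP library and 0 genes were lower (4% and 0%, against 6.54% and 7.05% of all genes). Among the genes with a negative difference were Fabp2 (-4.56), Fabp1 (-3.22) and Krt20 (-1.54), all with overlap. Fabp2 had 0.44 to 50.3 RPKM in LP and 44.7 to 250 RPKM in PP. The goblet cell gene Muc2, which did not pass the filter, had 17.6 RPKM in wild-type LP replicate 2 and 0.043 RPKM or less elsewhere. The goblet cell genes Agr2, Zg16 and Spink4 were high in 3 of the 4 LP libraries. Agr2 had 107 and 141 RPKM in the LP libraries labelled Tcf7-KO and 0.51 and 116 in the wild-type LP libraries, against 0.65 RPKM or less in PP. Zg16 had 232 and 42.9 RPKM in the LP libraries labelled Tcf7-KO and 0.37 and 177 in the wild-type LP libraries, against 2.34 RPKM or less in PP. Spink4 had 66.2 and 11.1 RPKM in the LP libraries labelled Tcf7-KO and 0.26 and 285 in the wild-type LP libraries, against 0.89 RPKM or less in PP. Wild-type LP replicate 1, where Agr2, Zg16 and Spink4 were low, had the lowest epithelial sum in LP. Not all epithelial markers were low in that library, with Krt19 at 50.9, Reg3b at 43.1 and Reg3g at 46.5 RPKM. The part of epithelial transcripts in the tissue differences of the 10 members was not tested. T cell markers summed to 272 to 463 RPKM in LP and 734 to 1001 in PP, myeloid markers to 278 to 352 in LP and 340 to 633 in PP, and stromal and endothelial markers to 28.1 to 64.4 in LP and 78.3 to 205 in PP. Of these lists 1 of 15, 7 of 19 and 7 of 12 genes were at 0 in all 8 libraries.

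Immediate early genes, which are induced within minutes by stimulation or tissue handling, summed to 13022 to 16455 RPKM in LP and 7704 to 8459 RPKM in PP. Of 17 that passed the filter, 6 lay higher in every LP library (Btg2, Egr2, Fosb, Junb, Nr4a1 and Nr4a2, of which Egr2 was near 0 in 2 of the LP libraries) and 1, Jun, lay lower. Of the 17, 13 had a positive LP minus PP difference, while Fos (-0.64) and Egr1 (-0.65) had negative ones with overlap. Junb alone had 7367 to 9650.5 RPKM in LP and 1979 to 2956.1 RPKM in PP. Cytosolic heat shock genes summed to 929 to 1474 RPKM in LP and 1005 to 1147 in PP, and 4 of 13, Dnaja1, Dnajb4, Hsp90aa1 and Hspa4, lay higher in every LP library. Those higher in every LP library were 35.3% of the immediate early and 30.8% of the heat shock genes, against 6.54% of all genes. Those lower were 5.88% and 0%, against 7.05% of all genes. The part of these genes in the tissue differences of the 10 members was not tested.

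**Figure D4:**
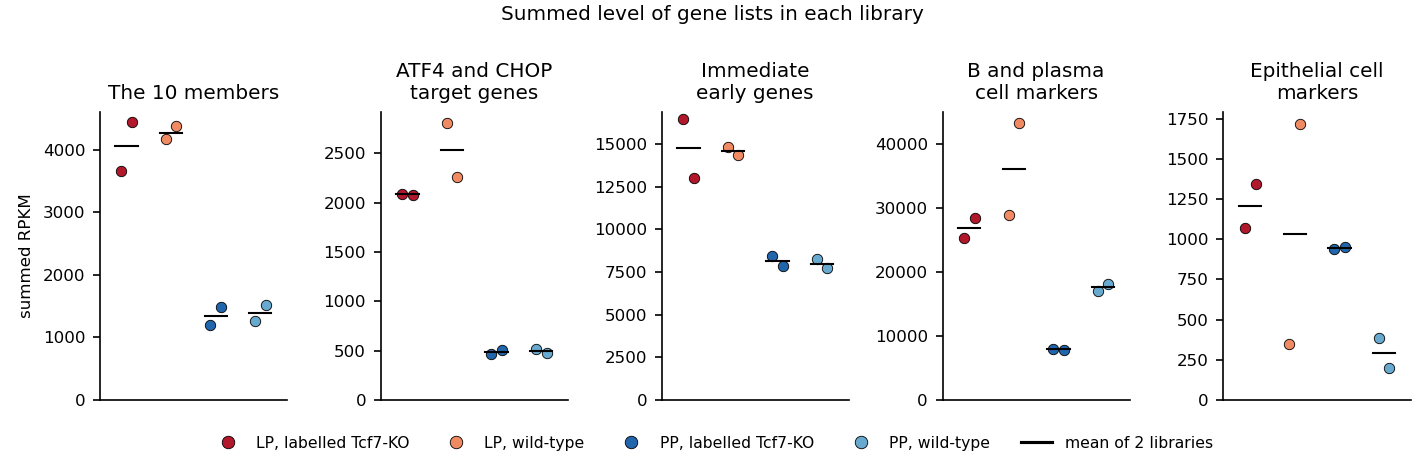
Summed RPKM per library of the 10 members and of 4 gene lists, each on its own axis from 0, with 2 points per group and a bar at their mean; the groups run as in the plot of each gene by library. The members sum to 3666 to 4451 RPKM in LP and 1202 to 1520 RPKM in PP, and the immediate early and B lineage sums are also higher in every LP library, while the epithelial sums overlap.

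The genotype comparison asked whether the libraries labelled Tcf7-KO differed from wild-type in each tissue. None of the 10 genes passed limma's test in either tissue, in the average over both tissues or in the interaction of genotype and tissue, with Benjamini-Hochberg adjustment across the 10541 genes and a threshold of 0.05. Of all genes, 0.36% passed in PP, 28 of them higher (0.266%) and 10 lower (0.0949%) in the libraries labelled Tcf7-KO. The shares were 0.0285% in LP, 0.00949% in the average and 0.0285% in the interaction. At an unadjusted p under 0.05, 1 of the 10 members was found in PP, where 11.4% of all genes were. In LP, in the average and in the interaction 0 members were found, and 5.27%, 6.81% and 8.75% of all genes.

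That member was Herpud1, at 99.1 ± 39.0 RPKM in the PP libraries labelled Tcf7-KO and 175 ± 18 RPKM in the wild-type PP libraries (SD, n = 2 each). Both libraries labelled Tcf7-KO lay below both wild-type libraries, which 14.8% of all genes also showed. The log2 difference was -0.86 ± 0.32 (SE), with a 95% confidence interval of -1.62 to -0.11 and an adjusted p of 0.35 by limma. In LP the difference was -0.01 ± 0.32, and the interaction, 0.86 ± 0.45, had an adjusted p of 0.691.

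The precision differed widely among the 10 genes. For Hspa5 the difference between libraries labelled Tcf7-KO and wild-type was -0.07 in LP, with a 95% interval of -0.75 to 0.61 on the log2(RPKM + 1) scale, and 0.21 in PP, with an interval of -0.47 to 0.89. With median-of-ratios scaling these differences of Hspa5 were 0.15 in LP and -0.37 in PP. Xbp1 gave intervals of -0.87 to 0.56 in LP and -0.65 to 0.78 in PP. For Ddit3 the intervals ran from -4.13 to 4.35 in LP and from -4.50 to 3.98 in PP, so that large differences in either direction could not be told from none. Atf4 had both LP libraries labelled Tcf7-KO below both wild-type LP libraries, as 20.3% of all genes did, with a difference of -0.67 ± 0.96 (SE) and an adjusted p of 1 by limma.

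Hsp90b1 lay in opposite order in the tissues, with both libraries labelled Tcf7-KO below both wild-type libraries in LP, as for 20.3% of all genes, and above them in PP, as for 22.7%. The differences were -0.21 ± 0.29 in LP and 0.26 ± 0.29 in PP, both of the opposite sign after median-of-ratios scaling (0.007 in LP and -0.31 in PP), and the interaction did not pass. The median difference of the 10 genes was -0.04 in LP and -0.18 in PP, and that of all genes -0.06 in LP and 0.16 in PP. The PP libraries labelled Tcf7-KO also had 13.4 and 13.6% of summed RPKM in mitochondrially encoded genes, against 3.06 and 3.28% in wild-type PP. The part of this in the PP differences was not tested.

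**Figure D5:**
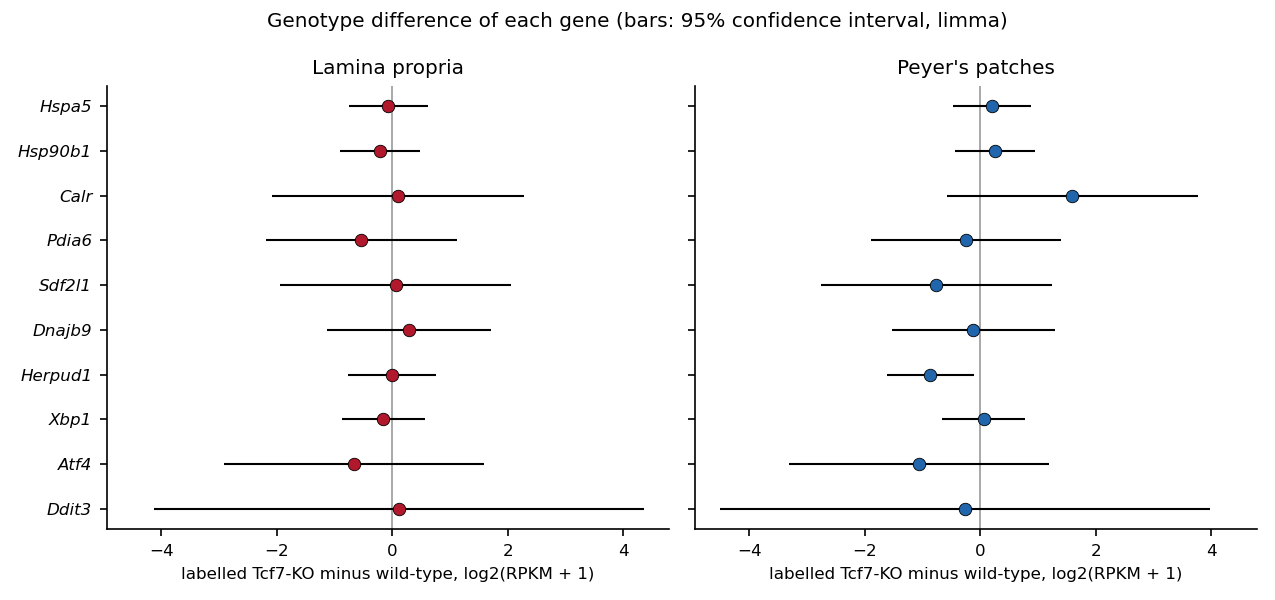
Difference between libraries labelled Tcf7-KO and wild-type libraries for each gene on the log2(RPKM + 1) scale, with LP on the left and PP on the right; bars are the 95% confidence intervals of the limma fit with 2 libraries per group. The intervals of 9 genes include 0 in both tissues, and that of Herpud1 in PP runs from -1.62 to -0.11 with an adjusted p of 0.35.

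In the pathway lists, 1 gene passed a genotype comparison. Mthfd2, a mitochondrial enzyme of folate metabolism and a target of ATF4, fell by 5.12 on the log2(RPKM + 1) scale in PP (SE 0.69, adjusted p of 0.0427 by limma), with 0.42 and 0.34 RPKM in the libraries labelled Tcf7-KO and 54.9 and 40.2 RPKM in wild-type. In LP it had 35.9 and 57.5 RPKM in the libraries labelled Tcf7-KO and 65.0 and 89.7 RPKM in wild-type. The call was lost without any 1 of the 8 libraries (adjusted p of 0.0726 to 0.144 by limma), with a pseudocount of 5 (0.0601), with only the 2 groups fitted (0.358) and with a replicate block (0.119). The interaction for Mthfd2, 4.38 ± 0.97, had an adjusted p of 0.309 by limma. Among the other 21 ATF4 and CHOP targets tested, Atf3 had the smallest p in PP, with a difference of -2.45 ± 0.42 and an adjusted p of 0.0635. The 24 chaperones, 23 degradation genes, 9 sensors and factors and 33 translocation genes had 0 that passed in any of the 4 comparisons. At an unadjusted p under 0.05 by limma, 3, 3, 1 and 2 of them were found in PP, against 11.4% of all genes. In LP 0 of each list were found, against 5.27% of all genes. The PP counts are not read as a result about the lists. In those lists the smallest adjusted p in PP was 0.205 for Prdx4, 0.109 for Derl3, 0.389 for Creb3l2 and 0.135 for Lman1.

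Of the marker lists, the immunoglobulin light chain gene Iglc2, which has close paralogs that could share its reads, rose in PP by 4.86 ± 0.62 (SE, adjusted p of 0.0374 by limma), with 72.1 and 44.2 RPKM in the libraries labelled Tcf7-KO and 0.40 and 1.78 RPKM in wild-type. The immediate early gene Ier5 rose in PP by 5.28 ± 0.69 (SE, adjusted p of 0.0404 by limma). Ier5 had 47.5 and 62.0 RPKM in the libraries labelled Tcf7-KO and 0.31 and 0.55 RPKM in wild-type. The call on Ier5 was lost without any 1 library, and that on Iglc2 without any 1 except wild-type PP replicate 2, where its adjusted p by limma was 0.0397. No other gene of the marker, immediate early or heat shock lists passed in a genotype comparison. Sums of epithelial markers differed between the genotypes in PP, where they came to 939 and 951 RPKM in the libraries labelled Tcf7-KO and 384 and 198 RPKM in wild-type. Of the 25 tested, 19 had a positive difference, against 6002 of all 10541 genes, with a median of 2.02. At an unadjusted p under 0.05 by limma there were 7 of the 25, against 11.4% of all genes. Of T cell markers 4 of 10, of B and plasma cell markers 7 of 24 and of immediate early genes 5 of 17 were at an unadjusted p under 0.05 in PP. Their part in the PP differences between genotypes was not tested. Fewer genes reached 1 RPKM in the wild-type PP libraries, 6411 and 6365, against 8103 and 8039 in the PP libraries labelled Tcf7-KO. Estimated depths were 38.8 and 44.3 M reads against 38.3 and 40 M. In LP the order was the other way, with 8192 and 8433 genes in wild-type and 7437 and 7843 in the libraries labelled Tcf7-KO. Detection and genotype cannot be told apart in PP, and the part of detection in these calls was not tested. In simulated data with the spread of these libraries pooled over genes of like level, this design found few of the changed genes. It found 2% of genes changed by 2 on the log2 scale in PP and 6% in LP, and 26% in each tissue of those changed by 4. These shares are averages over genes and do not give the power for a single member. The SE in PP was 0.29 for Hspa5 and 1.80 for Ddit3.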

How the data were processed

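Sorted LTi cells gave 8 RNA libraries, with the 4 groups of 2 taken from the labels. Smart-seq2 was used on RNA from the miRNeasy Micro kit, per the labels' protocols, and the submitters' processing notes name Subread, featureCounts and mm10. Their versions, the aligner and the annotation were not given in the sources used here. Values deposited by the authors are log2(RPKM + 1), with 0.0001 in place of 0, which was read as 0.

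Of 27179 genes, the 10541 that reached 1 RPKM in 2 or more libraries were fitted on log2(RPKM + 1), with a pseudocount of 1, by limma 3.58.1 in R 4.3.3 (4 group means, eBayes with trend; additive model for the average effect). P-values are two-sided and Benjamini-Hochberg adjusted over all genes kept, with a threshold of 0.05; log2 differences understate changes of low genes. The fit was tested on simulated data. Counts were not used here; depth came from whole-read steps in 841 intronless genes, where 90.6 to 98.1% of low values lay within 0.1 reads of a whole number. Of the 10541 genes kept, 1.16% or fewer held exactly equal values (no tolerance, pairs at 0 included) in both libraries of a group, which were treated as separate.

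The members and gene lists were chosen with earlier results of these data known. All members were named; of each list the genes that passed a genotype comparison, or the smallest p, and for the tissues up to 4 genes of at least 5 RPKM with the largest difference. Genes with non-overlapping tissues, Eif2ak3, and the marker genes given by name were named after their values were seen. Alternatives were other pseudocounts, filters, scalings, fits, a replicate block and leaving out each library. One item of the labels and lists is not reported here.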

Additional observations from a re-analysis of the deposited data

Results flagged for a closer look

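Hsp90b1 was singled out because every library labelled Tcf7-KO lay below the wild-type libraries in LP and above them in PP. The interaction of genotype and tissue was -0.48 ± 0.41 (SE) on the log2(RPKM + 1) scale, with an adjusted p of 0.825 by limma, so the difference between the tissues did not pass the test. It was 0.32 after median-of-ratios scaling, the opposite direction.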

How the results depend on the processing

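None of the 10 members passed a genotype comparison under any setting that was run. In the 14 settings that bear on the tissues, 7 of 10 kept all LP libraries above all PP libraries. Leaving out a library or changing the pseudocount could not have undone that order. The count over all genes in PP, 38, was 76 with no filter, 23 with median-of-ratios scaling, 0 with only the 2 groups in the fit, 138 with eBayes without trend and 16 with the replicate block, and 1 to 34 with 1 library left out. In LP it was 3, and 0 with a pseudocount of 0.1, 56 with no filter, 0 with only the 2 groups, 0 without trend, 0 with the replicate block, and 0 to 3 with 1 library left out. The average effect gave 1, 2 with a pseudocount of 5, and 1 to 4 with 1 library left out. The interaction gave 3, 10 with a pseudocount of 5, 36 with no filter, 0 without trend, 1 with the replicate block, and 0 to 2 with 1 library left out. The cause of these changes was not tested. No pairing by replicate number was seen, with correlations of replicate differences between groups of -0.02 to 0.01. Replicates of a group correlated at 0.577 to 0.745 on the log2(RPKM + 1) scale. Spread between libraries could thus hide shared animals, and the correlations cannot exclude them. The replicate block changed no call on a member, while Mthfd2, Iglc2 and Ier5 no longer passed with it in PP (adjusted p of 0.119, 0.11 and 0.119 by limma).

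Median-of-ratios scaling changed the median genotype difference of all genes, which was 0.16 in PP and -0.06 in LP as deposited, to -0.06 in PP and 0.05 in LP. With it the member differences turned round in PP for Hspa5 (-0.37), Hsp90b1 (-0.31) and Xbp1 (-0.51), in LP for Hspa5 (0.15), Hsp90b1 (0.007), Herpud1 (0.22) and Xbp1 (0.066), and in the interaction for Hsp90b1 (0.32). Scaling without immunoglobulin and mitochondrial genes turned Dnajb9 in PP (0.006). With 1 library left out, PP differences ran from -0.50 to 0.27 for Dnajb9, -2.58 to 0.47 for Atf4, -2.71 to 2.19 for Ddit3, -0.14 to 0.26 for Xbp1 and -1.79 to 0.28 for Sdf2l1. LP differences ran from -0.46 to 0.32 for Hspa5, -1.46 to 0.39 for Pdia6, -0.33 to 0.55 for Ddit3, -0.026 to 0.209 for Calr, -0.60 to 0.71 for Sdf2l1, -0.11 to 0.10 for Herpud1, -0.072 to 0.648 for Dnajb9 and -0.44 to 0.14 for Xbp1. With 2 libraries per group, directions between genotypes are not settled for these genes.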
